A study of Mus musculus with 6 samples.

Results

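The Tmprss11 genes encode a family of membrane-anchored serine proteases that lie side by side on mouse chromosome 5. The arrays measured 7 of them (Tmprss11a, Tmprss11bnl, Tmprss11c, Tmprss11d, Tmprss11e, Tmprss11f and Tmprss11g) among 24647 named genes, and the 7 were taken by gene symbol. They were picked as a set because several were lower in one genotype of these same arrays, so their genotype differences are given as a description and carry no test. Each had 1 probe set. RNA came from whole metaplastic nodules at the squamo-columnar junction, where the squamous forestomach meets the glandular stomach, of C57/BL6 mice given 0.2% deoxycholic acid in drinking water from 8 weeks to 14 months of age. Samples 52540, 52541 and 52542 carried both transgenes (K14-Cdx2::L2-IL-1β, double transgenic), and samples 52543, 52544 and 52545 carried L2-IL-1β only (single transgenic). In both groups a viral L2 promoter drove human IL-1β in squamous epithelium. Only the double transgenic mice also expressed Cdx2, an intestinal transcription factor, from the murine keratin 14 promoter, which is active in basal squamous cells. No source used here says whether each sample was 1 mouse or a pool.

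Type II transmembrane serine proteases span the membrane once near the amino terminus and carry a trypsin-like protease domain outside the cell. They are made as inactive zymogens and are activated by cleavage. The Tmprss11 genes form the HAT/DESC branch, whose members in mouse and human are mostly expressed in squamous and airway epithelia. They cleave surface and secreted proteins after basic residues.

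The genes occupied 514.3 kb of chromosome 5, from 86660506 to 87174840 (NCBIM37, the build of every gene position given here), in the order Tmprss11c, Tmprss11d, Tmprss11a, Tmprss11g, Tmprss11f, Tmprss11bnl and Tmprss11e. All were on the minus strand. The distances between one gene and the next ran from 3.3 kb, between Tmprss11g and Tmprss11f, to 37.0 kb, between Tmprss11d and Tmprss11a. The deposited values were log2 intensities, on which a difference of 1 is a factor of 2. A probe set's level depends on its own probes, so levels were compared between samples and not between genes.

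The difference between genotypes was not shared by all genes along the cluster. Tmprss11bnl was 5.31-fold and Tmprss11g 4.29-fold lower in the K14-Cdx2::L2-IL-1β nodules, Tmprss11e was 2.75-fold, Tmprss11d 2.43-fold and Tmprss11a 1.34-fold lower in the mean, while Tmprss11f, which lies between Tmprss11g and Tmprss11bnl, and Tmprss11c, at one end, showed mean differences of 0.16 and -0.04 on the log2 scale.

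The sequences before the start sites are shown for the 3 genes with no overlap between the genotypes and the widest gaps between them (Tmprss11bnl, Tmprss11g and Tmprss11d) and for Tmprss11f, their neighbour whose values overlapped. Each is the 250 bases before the gene's start in RefSeq (GRCm38.p6, chromosome 5, minus strand), written 5′ to 3′, and capitals mark matches to the half-site of the p53 family, the transcription factors that include p63, the regulator of squamous basal cells. Tmprss11bnl is listed in RefSeq as Tmprss11b. The 4 windows lie at chr5:86676299-86676548 (Tmprss11bnl), chr5:86518601-86518850 (Tmprss11g), chr5:86373388-86373637 (Tmprss11d) and chr5:86632425-86632674 (Tmprss11f).
Tmprss11bnl: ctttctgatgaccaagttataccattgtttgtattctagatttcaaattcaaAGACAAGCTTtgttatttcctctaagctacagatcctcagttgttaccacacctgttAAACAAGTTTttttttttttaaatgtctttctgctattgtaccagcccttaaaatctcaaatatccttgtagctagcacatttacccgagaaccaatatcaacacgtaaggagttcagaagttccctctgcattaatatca
Tmprss11g: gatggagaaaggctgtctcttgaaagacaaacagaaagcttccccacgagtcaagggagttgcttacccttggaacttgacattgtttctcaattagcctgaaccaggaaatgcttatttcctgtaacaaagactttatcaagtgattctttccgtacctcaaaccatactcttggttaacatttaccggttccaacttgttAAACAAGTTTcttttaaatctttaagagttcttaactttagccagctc
Tmprss11d: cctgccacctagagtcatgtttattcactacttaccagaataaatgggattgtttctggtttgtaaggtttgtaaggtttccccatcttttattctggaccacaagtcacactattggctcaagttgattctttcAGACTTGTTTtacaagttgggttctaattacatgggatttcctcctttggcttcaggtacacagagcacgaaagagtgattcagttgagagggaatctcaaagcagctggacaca
Tmprss11f: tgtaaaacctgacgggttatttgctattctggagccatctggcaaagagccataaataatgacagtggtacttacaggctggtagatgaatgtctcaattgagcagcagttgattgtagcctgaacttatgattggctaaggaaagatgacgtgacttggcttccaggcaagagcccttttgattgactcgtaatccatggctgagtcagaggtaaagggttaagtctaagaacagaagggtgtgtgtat

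The half-site was searched on both strands and was found in the windows of 4 of the 6 Tmprss11 genes that had one in the RefSeq table. Tmprss11bnl held 2 matches, at 198 to 189 and 141 to 132 bases before the start. Tmprss11g held 1 at 48 to 39 bases, Tmprss11d 1 at 115 to 106 bases and Tmprss11a 1 at 175 to 166 bases. The start used for Tmprss11a lies inside the outer end of the gene in RefSeq, so part of its window is within the annotated gene. Tmprss11c and Tmprss11f held none, and Tmprss11e had no window. Of 32851 windows of this length, 7.13% held a match. A CDX site, written TTTATNG, was found in the windows of Tmprss11c (158 to 152 bases) and Tmprss11f (201 to 195 bases) and in 9.81% of all windows. The letters TTTAT without that G also occur in the windows of Tmprss11d and Tmprss11g and were not counted. An AP-1 site, TGANTCA, was found in those of Tmprss11d (39 to 33 bases) and Tmprss11f (48 to 42 bases) and in 6.75% of all. Neither the grainyhead site AACCGGTT (0.116% of all windows) nor the TATA box TATAAA (12.4%) was found in any of the 6. No 2 of these motifs overlapped in the 6 windows. The motifs were chosen after the sequences and the array values had been seen. A match is a description of letters and not of binding.

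Tmprss11bnl (gene 319875, chromosome 5, 87086656 to 87105387) is the mouse counterpart of human TMPRSS11B, also called HAT-like 5. Its log2 intensity was 9.36, 9.31 and 9.66 in the 3 double transgenic samples and 11.92, 11.73 and 11.90 in the 3 L2-IL-1β samples. All double transgenic values lay below all single transgenic values, with a gap of 2.07 between the nearest 2 samples. The means were 9.44 ± 0.19 (SD, n = 3) and 11.85 ± 0.10 (SD, n = 3). The log2 fold change was -2.41 (SE 0.11), the largest fall in the cluster.

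Tmprss11g (gene 320454, 86914901 to 86947625) is a member of the same branch in rodents. It measured 10.36, 10.48 and 10.15 in the double transgenic samples and 12.46, 12.35 and 12.47 in the L2-IL-1β samples. The groups did not overlap and were 1.87 apart at the nearest. The means were 10.33 ± 0.17 and 12.43 ± 0.07 (SD, n = 3 each), for a log2 fold change of -2.10 (SE 0.10). Of the 7 genes, Tmprss11bnl and Tmprss11g had the widest separation between genotypes, although Tmprss11f lies between them.

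Tmprss11d (gene 231382, 86731242 to 86802445) encodes the mouse counterpart of human airway trypsin-like protease, which in human cells cleaves influenza haemagglutinin and the protease-activated receptor PAR2. Its values were 10.77, 10.87 and 10.60 against 12.20, 11.86 and 12.02 in L2-IL-1β nodules. The 3 double transgenic samples again lay below the 3 single transgenic ones, by at least 0.99. The means were 10.75 ± 0.13 and 12.03 ± 0.17 (SD, n = 3 each) and the log2 fold change was -1.28 (SE 0.11).

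Tmprss11a (gene 194597, 86839435 to 86898015), known in human as an esophageal cancer-related gene, had the smallest difference of the genes whose groups did not overlap. It measured 11.25, 11.33 and 11.37 in the double transgenic samples and 11.81, 11.63 and 11.78 in the L2-IL-1β samples, a gap of 0.27. The means were 11.32 ± 0.06 and 11.74 ± 0.10 (SD, n = 3 each), for a log2 fold change of -0.43 (SE 0.08).

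Tmprss11e (gene 243084, 87134211 to 87174840), whose human counterpart DESC1 is named for its altered expression in squamous cell carcinoma, varied most among the double transgenic samples. It measured 9.67 in 52540, 9.31 in 52541 and 8.09 in 52542, a range of 1.59, against 10.42, 10.40 and 10.62 in the L2-IL-1β samples, a range of 0.22. The groups did not overlap and were 0.73 apart. The means were 9.02 ± 0.83 and 10.48 ± 0.12 (SD, n = 3 each) and the log2 fold change was -1.46 (SE 0.38). Without sample 52542 the log2 fold change was -0.99.

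Tmprss11f (gene 243083, 86950923 to 87061449), which in mice takes part in forming the epidermal barrier, measured 10.50, 10.57 and 9.98 in the double transgenic samples and 10.27, 10.04 and 10.26 in the L2-IL-1β samples. The groups overlapped, with 52540 and 52541 above all single transgenic samples and 52542 below them. The means were 10.35 ± 0.32 and 10.19 ± 0.13 (SD, n = 3 each) and the log2 fold change was 0.16 (SE 0.17). Tmprss11c (gene 435845, 86660506 to 86718333), called neurobin and described in mouse brain, measured 5.12, 5.22 and 5.11 against 5.15, 5.22 and 5.19. All 6 values lay within 0.11 of each other and below 6.64, the median of the probe set means, so this probe set was dim in both groups. Its log2 fold change was -0.04 (SE 0.06).

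**Figure D1:**
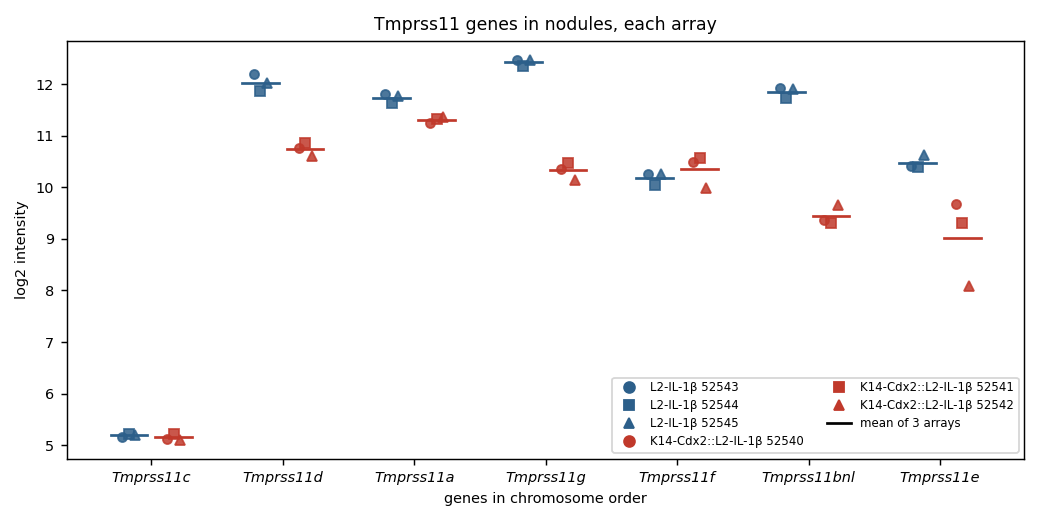
Log2 intensity (y axis) of each Tmprss11 gene in each of the 6 arrays, with the genes along the x axis in chromosome order, L2-IL-1β in blue, K14-Cdx2::L2-IL-1β in red and horizontal lines for the mean of 3 arrays. The red points of Tmprss11bnl, Tmprss11g, Tmprss11d, Tmprss11e and Tmprss11a lie below all blue points of the same gene, by 2.07, 1.87, 0.99, 0.73 and 0.27, and those of Tmprss11f and Tmprss11c do not.

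Over the 7 genes the median log2 fold change was -1.28, against -0.01 over all 34365 probe sets. In limma's moderated fit across all probe sets with Benjamini-Hochberg adjustment, 4 of the 7 (Tmprss11a, Tmprss11bnl, Tmprss11d and Tmprss11g) were lower at an adjusted p under 0.10 and none was higher. The background for this threshold was 1.26% of all probe sets lower and 0.576% higher (1.84% in either direction), and with a 2-fold limit added, met by 3 of the 7 (Tmprss11bnl, Tmprss11g and Tmprss11d), it was 0.335% lower. In 5 of the 7 genes all double transgenic arrays lay below all single transgenic arrays, as in 11.5% of all probe sets, and in none of the 7 did all lie above, as in 8.3% of all. These counts restate how the genes were chosen and nothing was read from them. The same holds when samples are left out, since the values that chose the genes remain in the fit. Tmprss11bnl and Tmprss11g were past the threshold in each of the 6 fits with 1 sample left out. Tmprss11d no longer passed without 52543 (log2 fold change -1.20) or 52545 (-1.29). Tmprss11a passed with all samples and without 52540, and did not pass without 52541 (-0.43), 52542 (-0.45), 52543 (-0.39), 52544 (-0.48) or 52545 (-0.41). Tmprss11e did not pass with all samples, but did without 52540 (-1.78) or without 52542 (-0.99).

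The 3 double transgenic samples did not keep one order over the genes. As differences from the L2-IL-1β mean, Tmprss11bnl was -2.49 in 52540, -2.54 in 52541 and -2.19 in 52542, so 52542 had its smallest fall. For Tmprss11g the differences were -2.07, -1.95 and -2.28, and for Tmprss11d -1.26, -1.16 and -1.43, so 52542 had the largest fall of both. Tmprss11e separated the samples most, at -0.81, -1.17 and -2.39. Because 2 probe sets differ in brightness, only the change between samples in their difference can be read. The log2 value of Tmprss11g minus that of its neighbour Tmprss11f was -0.14, -0.09 and 0.17 in the double transgenic samples and 2.20, 2.31 and 2.21 in the L2-IL-1β samples.

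Markers of other cells moved with genotype too. In bulk tissue, fewer cells of a type and less RNA per cell cannot be told apart. All 14 basal and core squamous markers had a mean above the array median. Of these, 3 were lower in double transgenic nodules, namely Krt14 (-0.57, adjusted p 0.0416), the plakophilin Pkp3 (-0.46, adjusted p 0.0579) and Sfn (-0.36, adjusted p 0.0746), none was higher, and the list's median was -0.28. Trp63, which encodes p63, did not pass (-0.10, adjusted p 0.712). Of 20 differentiated squamous markers 5 were lower, none was higher, and the median was -0.18. The 5 were the desmosomal cadherin Dsc2 (-1.03, adjusted p 0.0173) and the keratins Krt6a (-1.23, adjusted p 0.0508), Krt6b (-0.79, adjusted p 0.0476), Krt16 (-1.04, adjusted p 0.0479) and Krt17 (-0.53, adjusted p 0.0683). Of the 20, 4 had a positive log2 fold change. Krt13 (-0.10, adjusted p 0.593), Krt10 (-0.06, adjusted p 0.781), Lor (0.11, adjusted p 0.615) and Ivl (0.70, adjusted p 0.341) did not pass. On the log2 scale, the summed intensity of the basal list was 15.58 to 15.73 in double and 15.88 to 15.97 in single transgenic samples. That of the differentiated list was 17.10 to 17.23 against 17.41 to 17.47, and that of the 7 Tmprss11 genes 12.86 to 13.09 against 14.13 to 14.32. The part of squamous content in the Tmprss11 values was not tested.

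Among 12 neutrophil markers 7 were lower and none higher, with a median of -1.23, led by S100a9 (-1.90, adjusted p 0.00687), S100a8 (-1.72, adjusted p 0.0212) and Stfa3 (3.99-fold lower, adjusted p 0.0212). S100a8 and S100a9 are also made by squamous epithelium, so they do not mark neutrophils alone. Ly6g, the neutrophil surface marker, was lower (-0.59, adjusted p 0.0805) and lay below the array median of 6.64 in all samples. The summed intensity of the 12 was 12.27 to 12.61 in double and 13.80 to 14.07 in single transgenic samples. S100a8 and S100a9 were the brightest of the 12 in single transgenic samples (means 12.93 and 11.44), so they weigh most in that sum. Among 12 leukocyte markers none passed in limma's fit, and 6 had an unadjusted p under 0.05 (against 13.7% of all probe sets). Of the 12, 8 had a negative and 4 a positive log2 fold change. Those with the smallest p had negative ones, namely Cd3e (-1.29, adjusted p 0.103), Itgax (-0.80, adjusted p 0.141) and Cd3g (-1.47, adjusted p 0.243). Cd8a, also among the 6, had a positive one (0.30, adjusted p 0.315) and lay below the array median in all samples. The summed intensity of the 12 leukocyte markers was 11.69 to 12.22 in double transgenic samples and 12.60 in each single transgenic sample. Of 16 columnar and intestinal markers 1 was higher, the intestinal brush border protein Cdhr5 (2.84, adjusted p 0.0765). Of the 16, 12 had a positive and 4 a negative log2 fold change, with a median of 0.17. The list's median deviation from the L2-IL-1β mean was 0.83 in 52542, 0.13 in 52541 and -0.14 in 52540. In the single transgenic samples it was -0.20 to 0.22. The intestinal cadherin Cdh17 was below the array median in all 6 samples, at 5.78 to 6.37, and the goblet cell mucin Muc2 was near it, at 6.85 to 7.18. None of 12 gastric gland markers passed (3 at an unadjusted p under 0.05, against 13.7% of all probe sets). Of those 3, Gif (1.51) and Muc5ac (1.22) had a positive and Gkn3 (-0.78) a negative log2 fold change. The summed intensity of the gastric list was 16.46 to 17.04 in double and 15.96 to 16.69 in single transgenic samples. All 10 smooth muscle markers had a positive log2 fold change, with a median of 0.55, 4 had an unadjusted p under 0.05, and 1 passed, Tacr2 (1.42, adjusted p 0.0592). Their summed intensity was 15.37 to 15.60 in double and 14.56 to 15.44 in single transgenic samples. The 10 pancreatic acinar markers stood apart in sample 52542, where their median deviation was 4.37, against 0.10 for 52540 and 0.24 for 52541. The median of 4 Y-linked genes deviated by 4.25 in sample 52541 alone. Over all probe sets sample 52540 was closer to the single transgenic arrays (mean Pearson r over genes 0.9903) than to the other double transgenic arrays (0.9875). Without 52542 the Tmprss11 median log2 fold change was -0.99, which was the value of Tmprss11e. Those of Tmprss11bnl, Tmprss11g, Tmprss11d and Tmprss11a in that fit were -2.52, -2.01, -1.21 and -0.45. The part of these cells in the Tmprss11 values was not tested.

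**Figure D2:**
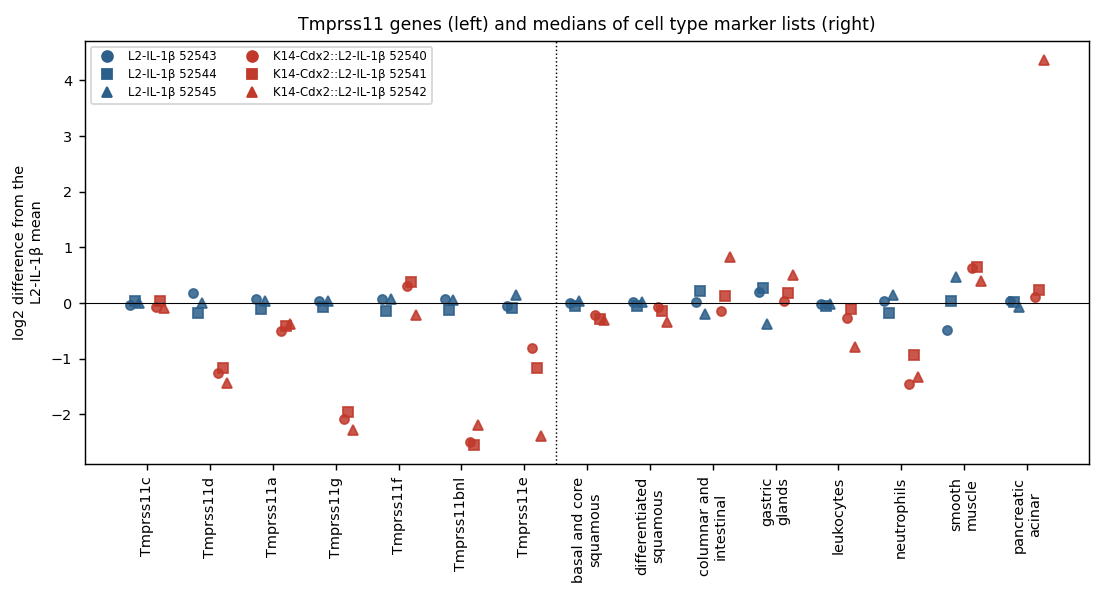
Difference on the log2 scale from the L2-IL-1β mean (y axis) of each Tmprss11 gene, left of the dotted line, and of the median of 8 cell type marker lists, right of it, with L2-IL-1β arrays in blue and K14-Cdx2::L2-IL-1β arrays in red. Tmprss11bnl lies between -2.54 and -2.19 and Tmprss11g between -2.28 and -1.95 in the 3 red samples, the basal squamous list lies between -0.30 and -0.21, and the acinar list stands at 4.37 in 52542.

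The genes around the cluster were examined by position alone. Only genes with an annotated position could be counted, which 19173 of the 27037 named probe sets had. Of 19 such genes within 1 Mb on either side, 1 was lower and none higher, and their median log2 fold change was 0.04. The 1 was Stap1, an adaptor protein of immune cell signalling, at 7.46, 7.14 and 6.72 in the double and 8.29, 8.54 and 7.99 in the single transgenic samples (log2 fold change -1.17, SE 0.22, adjusted p 0.0834). Stap1 no longer passed when any sample other than 52540 was left out. The nearest of the 19 on either side of the cluster did not pass. Gnrhr, the gonadotropin-releasing hormone receptor gene beside Tmprss11c, differed by -0.05 on the log2 scale (adjusted p 0.872). It was dim in all samples, at 4.43 to 4.75. Ythdc1, an RNA-binding protein gene beside Tmprss11e, differed by 0.11 (adjusted p 0.478). Uba6, the next gene beyond Gnrhr, did not pass (-0.52, adjusted p 0.171), with all double transgenic samples below all single transgenic ones. Sult1d1, on the other side, did not pass either (1.10, adjusted p 0.381).

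**Figure D3:**
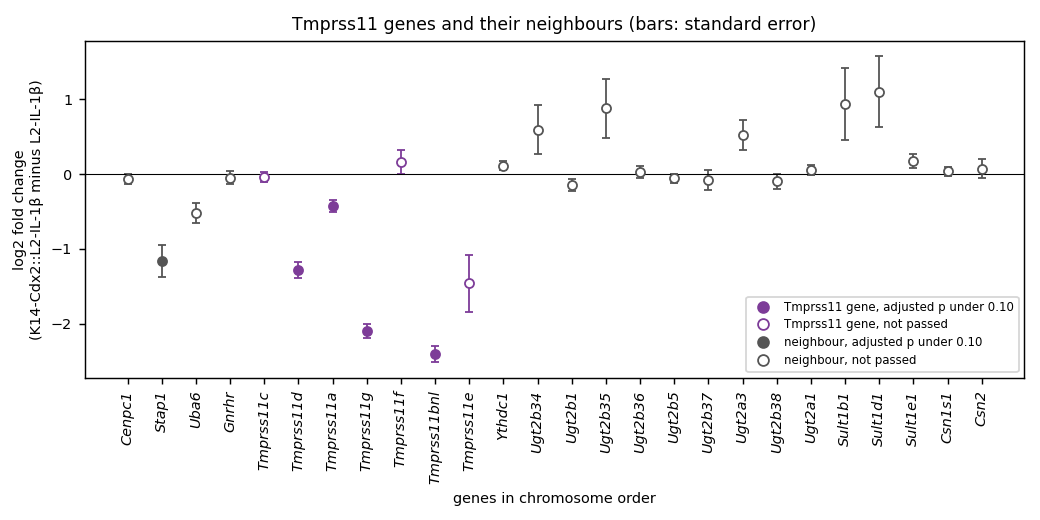
Log2 fold change (y axis, K14-Cdx2::L2-IL-1β minus L2-IL-1β, bars are the standard error) of the 7 Tmprss11 genes and 19 neighbours along the x axis in chromosome order, with filled points for an adjusted p under 0.10. Values fall to -2.41 within the cluster, with Tmprss11f at 0.16 between Tmprss11g and Tmprss11bnl. They lie near 0 at Gnrhr, which was dim in all samples, and Ythdc1 on the flanks of the cluster. The 19 neighbours run from -1.17 at Stap1 to 1.10 at Sult1d1, with Uba6 at -0.52.

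Outside the cluster, 13 other type II transmembrane serine proteases were measured. Tmprss4, a protease raised in several human carcinomas, was lower, at 10.09, 10.07 and 9.91 against 10.72, 10.61 and 10.82 (log2 fold change -0.69, SE 0.09, adjusted p 0.0416). It did not pass without 52541, 52543, 52544 or 52545. Of the 13, 6 lay below the array median on every array and were dim. None of the 13 was higher, 12 did not pass, and the median was 0.06. Tmprss9 (fold change 2.01, adjusted p 0.257), Tmprss12 (-0.24, adjusted p 0.338) and St14, the gene of matriptase, an activator of epidermal proteases (0.09, adjusted p 0.629), were among those that did not. Of 15 secreted or anchored trypsin-like proteases of squamous epithelium 5 were lower and none higher, and the median was -0.44. They were the kallikreins Klk12 (-1.38, adjusted p 0.047), Klk14 (-1.22, adjusted p 0.0423) and Klk10 (-0.50, adjusted p 0.0834) and the serine proteases Prss22 (-1.29, adjusted p 0.0882) and Prss27 (-0.72, adjusted p 0.056). Without 52543, 52544 or 52545 none of the 15 passed, and without 52541 only Klk12 and Klk14 did. Klk5, a kallikrein of the stratum corneum, did not pass (0.76, adjusted p 0.345).

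**Figure D4:**
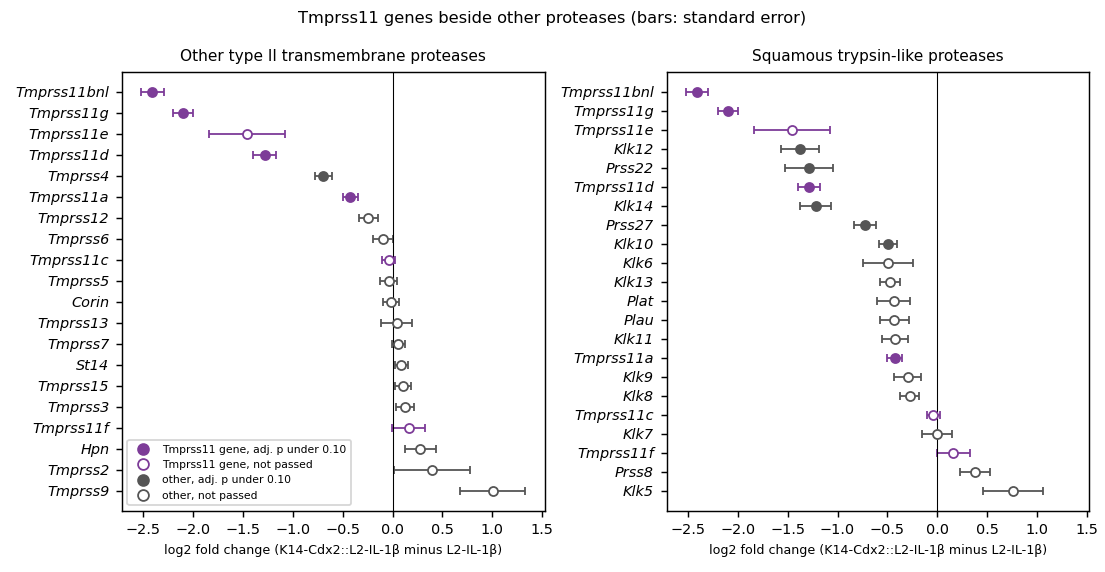
Log2 fold change (x axis, K14-Cdx2::L2-IL-1β minus L2-IL-1β, bars are the standard error) of the 7 Tmprss11 genes, in purple, beside 13 other type II transmembrane serine proteases (left) and 15 squamous trypsin-like proteases (right), in grey, with filled points for an adjusted p under 0.10. Tmprss4 is the filled grey point on the left, at -0.69, and the 5 on the right run from -1.38 to -0.50.

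None of 15 serine protease inhibitors passed in limma's fit, and 4 had an unadjusted p under 0.05, against 13.7% of all probe sets. Those with the smallest p were Spink12 (-1.16, SE 0.26, adjusted p 0.127), Spint1, the gene of a Kunitz inhibitor of matriptase (-0.34, adjusted p 0.174), and Serpinb1a (-0.43, adjusted p 0.187). Of 17 substrates and receptors 1 was lower, F2rl2, the gene of the thrombin receptor family member PAR3, at 6.71, 6.88 and 6.99 against 7.90, 7.96 and 7.79 (log2 fold change -1.02, SE 0.09, adjusted p 0.0211). F2rl2 did not pass without 52543 or 52544. F2rl1, the gene of PAR2, did not pass (0.73, SE 0.24, adjusted p 0.26), with all 3 double transgenic samples (10.28, 10.53 and 11.16) above all 3 single transgenic ones (9.89, 10.20 and 9.71).

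Likeness to the cluster was measured as the root mean square difference over the 6 arrays between a gene's mean-centred values and the mean of the 4 Tmprss11 genes that passed. The nearest genes outside the cluster were Gm1045 (0.134), Klrc1 (0.143), Klri2 (0.149), Ifitm1 (0.165) and Lcn2 (0.171), with log2 fold changes of -1.50, -1.30, -1.34, -1.68 and -1.47. Within the cluster the same distance was 0.157 for Tmprss11d, 0.287 for Tmprss11g, 0.444 for Tmprss11bnl, 0.486 for Tmprss11e, 0.565 for Tmprss11a, 0.761 for Tmprss11c and 0.876 for Tmprss11f. Tmprss11d, Tmprss11g, Tmprss11bnl and Tmprss11a are part of the mean they were set against. These distances are a description, since the genes were picked by them.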

How the data were processed

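RNA of 6 nodule samples, 3 per genotype, was labelled with the Affymetrix WT Expression Kit and hybridised to Affymetrix mouse gene arrays, for which the methods name the 1.0ST and the design text the 2.0ST design. The deposited values were log2 intensities per probe set, already normalised by the authors; no source used here names the normalisation method. The submitters' notes name mm8 and the table's annotation gives NCBIM37 positions. Both deposited tables held the same values for the 34365 probe sets (27037 with a symbol). The authors' comparison columns (fold change, ratio, SAM score, p and q values) were not used, and SAM was not rerun.

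Genotypes were compared with limma 3.58.1 (R 4.3.3), lmFit and eBayes on all 6 arrays with genotype as the only term, Benjamini-Hochberg adjustment over all probe sets and a threshold of adjusted p 0.10. An exact permutation of 3 against 3 samples cannot go below a p of 0.10. Array medians were close (6.62 to 6.65). The number of arrays limits the precision. Each p-value comes from limma's moderated t-test of the genotype difference, set against a spread between these samples that is partly shared across all probe sets. The Tmprss11 genes and the lists (4 of pathway genes, 8 of cell types, 166 entries, all measured, 1 under an older symbol) were chosen with earlier results of these data known. Named genes were the 7 members, the genes of each pathway list that passed or otherwise up to 3 of smallest p, neighbours that passed and the nearest on either side, up to 3 of each cell type list and the 5 of greatest likeness. Trp63, Krt6a, Krt17, Krt13, Krt10, Lor, Ivl, Ly6g, Cd8a, Cdh17, Muc2, Klk5, Prss8, St14, Mst1r and F2rl1 were chosen after their values were seen. So were Uba6 and Sult1d1. A gene with several probe sets was represented by the brightest. Promoter windows came from RefSeq tables (GRCm38.p6). Alternatives were leaving out each sample, no moderation, a trended and robust prior, median centring, quantile normalisation, leaving out dim probe sets, averaging probe sets, and thresholds of adjusted p 0.05 or 2-fold. Python 3.11.15, pandas 2.3.3 and matplotlib 3.10.9 were used.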

Additional observations from a re-analysis of the deposited data

How the results depend on the processing

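No Tmprss11 gene changed direction under any alternative run. Leaving out 1 sample gave log2 fold changes of -2.52 to -2.34 for Tmprss11bnl, -2.18 to -2.01 for Tmprss11g, -1.37 to -1.20 for Tmprss11d, -0.48 to -0.39 for Tmprss11a, -1.78 to -0.99 for Tmprss11e, 0.05 to 0.35 for Tmprss11f and -0.08 to -0.02 for Tmprss11c. Their median ran from -1.37 to -0.99, the last without 52542, and 2 to 5 of the 7 passed. The same left-out samples gave 0 to 2 other type II transmembrane serine proteases, 0 to 7 squamous trypsin-like proteases, 0 inhibitors, 0 to 2 substrates and receptors and 0 to 2 neighbours. All of these were lower except Tmprss9, Prss8 and Mst1r, which passed as higher without 52540. Tmprss4 passed without 52540 or 52542 and no other sample, Stap1 only without 52540, and F2rl2 in all such fits except those without 52543 or 52544. None of the 5 squamous proteases passed without 52543, 52544 or 52545. Over all probe sets, 433 were lower and 198 higher with all samples, against 13 to 1275 lower and 0 to 751 higher with 1 left out, the highest counts being those without 52540. Without limma's moderation 0 Tmprss11 genes passed, as did 0 of the other transmembrane proteases, 0 squamous proteases, 0 substrates and receptors and 0 neighbours. No probe set on the arrays passed there, although 4060 had an unadjusted p under 0.05. At an adjusted p under 0.05, 3 Tmprss11 genes, 2 squamous proteases (Klk12 and Klk14) and 0 neighbours passed. With a 2-fold limit, 3 Tmprss11 genes, 0 other transmembrane proteases and 3 squamous proteases passed. Leaving out dim probe sets, 1 inhibitor (Spink12) passed. Where counts moved, the cause was not tested.

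No paired analysis was possible because no number is shared by samples of both genotypes. With 3 arrays per genotype the calls depend on limma sharing the spread between probe sets. Tmprss11c lay below the array median on all arrays.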
